A study of Homo sapiens with 9 samples.

Results

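The genes examined here encode the replication-dependent histones, together with H2A.Z and the other linker histones, and their RNA levels were read from Affymetrix gene arrays of T47D breast cancer cells. A probe set was taken as a member when the platform annotation gave it a symbol starting with H1-, H2AC, H2BC, H3C, H4C or H2AZ, or one of the older names of these genes. That rule used names only and found 85 of the 33297 probe sets in the table, or 85 of the 21214 that carry a gene symbol. Of the 85 members, 65 named 1 gene and 20 named several, and each of the 20 counts once. The rule's prefix also caught H1-10-AS1, which is an antisense RNA and no histone gene, and its probe set is kept apart from the classes.

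Nucleosomes are built from an octamer of the core histones H2A, H2B, H3 and H4, and the linker histone H1 binds the DNA where it enters and leaves. The core histone genes lie in clusters, have no introns, and most of their messages end in a stem-loop rather than a poly(A) tail. Their RNA is made and kept mainly during S phase, when NPAT bound by cyclin E and CDK2 turns the clusters on and the stem-loop binding protein SLBP carries the message through processing and translation, and it is degraded when DNA synthesis stops. Variants such as H2A.Z, H3.3 and macroH2A are made from ordinary polyadenylated messages outside the clusters, and for some of them synthesis is not tied to replication.

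T47D is an established human breast cancer line of luminal type that carries progesterone receptor. In all 3 groups the cells carried pHUSH, a retroviral vector with a doxycycline-regulated hairpin, here directed against ELF5, an ETS transcription factor of the mammary alveolar lineage, and puromycin was used to maintain them. Progestin with doxycycline received 10 nM of the synthetic progestin ORG2058 and 0.1 µg/ml doxycycline for 4 days, progestin received 10 nM ORG2058 for 4 days, and vehicle received ethanol, with no time in culture given. Each group had 3 arrays from independent experiments, each on cells pooled from 3 wells; a control hairpin, or doxycycline without progestin, was not analysed here, and whether the hairpin line is 1 clone is not stated in the labels. The design asks how much of the response to progestin passes through ELF5.

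The targeted gene followed the labels. ELF5 read 10.44, 10.46 and 10.35 in progestin with doxycycline, 11.31, 11.23 and 11.31 in progestin and 10.26, 10.21 and 10.05 in vehicle, all on the log2 scale of the deposited values. The change was 1.11 (SE 0.078, adjusted p = 2.06e-05) for progestin against vehicle and -0.87 (SE 0.078, adjusted p = 0.029) for progestin with doxycycline against progestin. PGR, the progesterone receptor itself, averaged 9.96 in progestin with doxycycline, 9.63 in progestin and 11.91 in vehicle. All 10 luminal epithelial markers lay above the overall median in each group, against 1 of 5 basal, 1 of 6 fibroblast, 1 of 4 endothelial and 1 of 6 leukocyte markers. In progestin against vehicle the luminal markers moved both ways. PGR (-2.28), GATA3 (-0.51) and ESR1 (-0.50) fell, KRT19 (0.46) and XBP1 (0.23) rose, and the rest did not pass. The 5 basal markers did not move one way in progestin against vehicle: KRT5 rose (0.61, adjusted p = 0.0363), ACTA2 fell (-0.30, adjusted p = 0.0351), and VIM (-0.24), KRT14 (-0.09) and MYH11 (0.033) did not pass. Their median was 7.05 in progestin with doxycycline, 6.87 in progestin and 6.26 in vehicle. The marker at the median was KRT5 in progestin and vehicle but ACTA2 in progestin with doxycycline, so these medians show no rise of the set. The part of the basal markers in the histone results was not tested. PTPRC, which defines leukocytes, averaged 3.06 in progestin with doxycycline, 3.57 in progestin and 3.39 in vehicle.

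Histone gene RNA was lower across nearly every class after 4 days of progestin, and a small set of H2B, H3 and H4 genes went the other way. In limma's fit, 57 of the 85 members fell and 9 rose in progestin against vehicle at an adjusted p of 0.05, and 19 did not pass. Of all 21214 probe sets tested, 29.0% passed, 15.6% lower and 13.4% higher. The median change of the members was -1.10 on the log2 scale, against 0.02 over all probe sets. At least 2-fold lower were 47 members, and at least 2-fold higher was only H4C8. The 3 arrays of each group did not overlap for 62 members that were lower in progestin and 11 that were higher, whereas 21.5% and 20.8% of all probe sets were separated in these directions (42.3% in all). In RNA from whole cultures, fewer cells in S phase and less histone RNA per cell cannot be told apart.

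The shift stood in every array. The median of the 85 members was 8.21, 8.23 and 8.12 in progestin with doxycycline, 8.34, 8.14 and 8.30 in progestin, and 9.34, 9.23 and 9.06 in vehicle. The 6 treated arrays thus all lay below the 3 vehicle arrays, while the median over all probe sets stayed between 7.19 and 7.28 on the 9 arrays. With the progestin arrays set against the vehicle mean member by member, the median difference was -1.06, -1.06 and -1.10.

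Calls were counted by signal level. Of the 62 members whose mean lay above the overall median, 48 fell and 8 rose. Of the 23 at or below it, 9 fell and 1 rose. Over all probe sets 15.6% fell and 13.4% rose. These shares were not counted by signal level, so a difference between bright and dim members cannot be ascribed to histone genes. A total of 10 members belonged to the dimmest 25% of probe sets, of which 2 fell. The 7 members that name a germline gene or a pseudogene (H1-6, H1-7, H1-8, H1-9P, H2AC1, H2BC1 and H2BC19P) held none of the calls in limma's fit, with 1 of them lower at an unadjusted p under 0.05 (39.0% of all probe sets met that, 19.9% lower). Because genes of one histone class are nearly identical in sequence, a probe set may also catch RNA of related genes, and how far it did was not tested. The 85 members held 81 distinct value profiles, since 4 pairs of probe sets carried identical values on all 9 arrays. With each such pair counted once, 54 members fell and 8 rose.

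**Figure D1:**
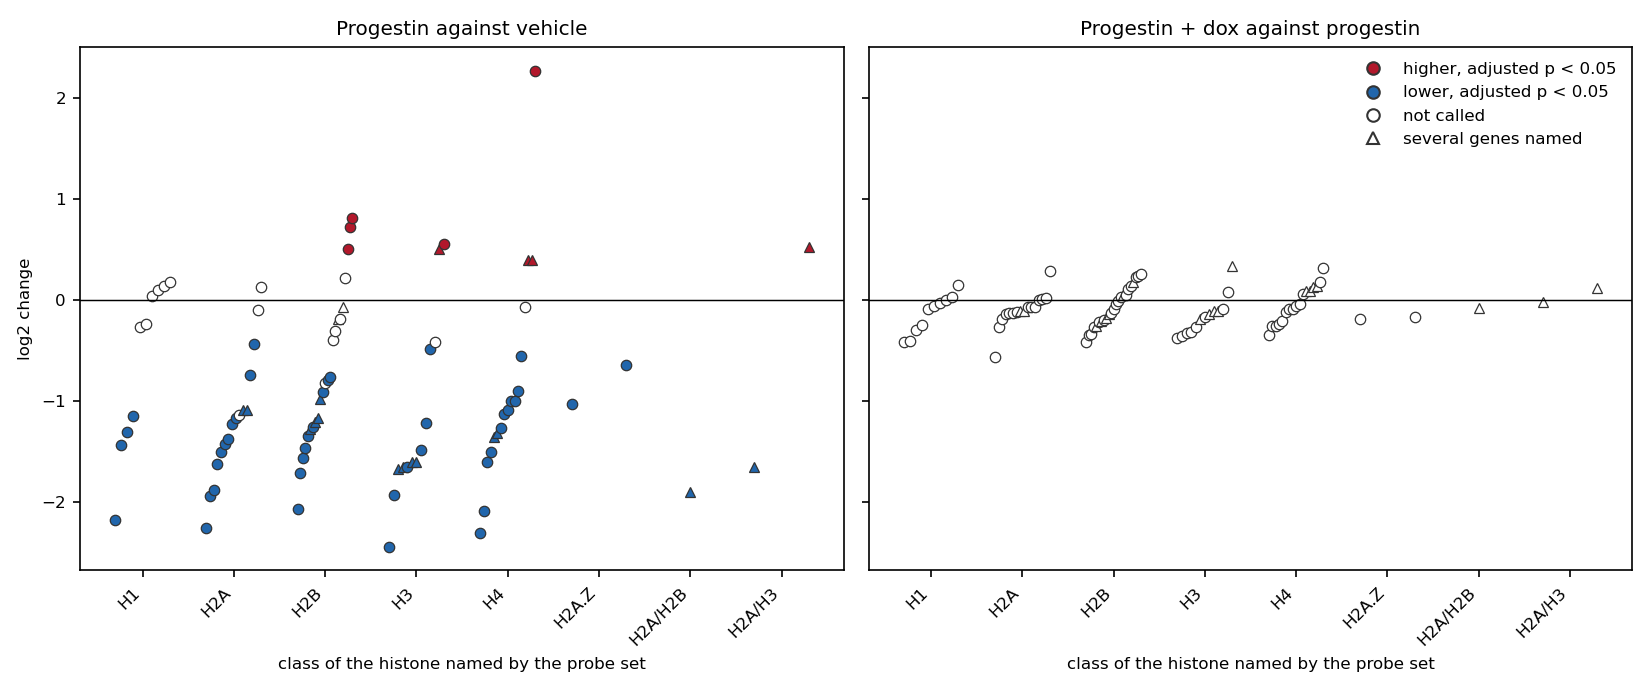
The log2 change of each member is plotted by histone class, for progestin against vehicle on the left and for progestin with doxycycline against progestin on the right. Filled points passed an adjusted p of 0.05 (blue lower, red higher), open points did not, and triangles name several genes. The antisense RNA is not drawn. On the left 57 members are blue and 9 are red, with H4C8 alone above 2, and on the right no point is filled.

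The linker histones split by type. H1-2, H1-3, H1-4 and H1-5 are the somatic, replication-dependent subtypes of the chromosome 6 cluster that most dividing cells make, and all of these fell. H1-5 read 9.20, 9.0 and 9.06 in progestin with doxycycline, 9.32, 9.25 and 8.79 in progestin and 11.45, 11.33 and 11.12 in vehicle, a change of -2.18 (SE 0.15, adjusted p = 2e-05) with progestin. H1-3 read 8.09, 8.17 and 7.87 in progestin with doxycycline, 8.44, 8.48 and 8.45 in progestin and 9.95, 9.99 and 9.75 in vehicle and changed by -1.44 (SE 0.10, adjusted p = 2.11e-05). For both genes all treated arrays lay more than 1 log2 unit below the lowest vehicle array. H1-4 read 10.16, 10.37 and 9.99 in progestin with doxycycline, 10.54, 10.45 and 10.42 in progestin and 11.85, 11.85 and 11.66 in vehicle (-1.31, SE 0.11, adjusted p = 4.75e-05). H1-2 read 9.43, 9.65 and 9.43 in progestin with doxycycline, 9.49, 9.48 and 9.45 in progestin and 10.72, 10.69 and 10.47 in vehicle (-1.15, SE 0.093, adjusted p = 4.49e-05). In all 4 genes the treated arrays lay below the vehicle arrays.

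The other 6 linker histone members did not pass. H1-10, the H1.X gene on chromosome 3, whose message does not depend on replication, read 8.59, 8.50 and 8.55 in progestin with doxycycline, 8.45, 8.56 and 8.65 in progestin and 8.82, 8.96 and 8.69 in vehicle. Its change of -0.27 (SE 0.09) had an adjusted p of 0.0547, just past the threshold, and it passed under 5 of the 16 alternative settings, the lowest adjusted p being 0.0201 with a variance trend and robust estimation. H1-1, the cluster subtype found in few cell types, read 5.07, 4.74 and 5.36 in progestin with doxycycline, 5.64, 4.82 and 4.25 in progestin and 5.45, 4.80 and 5.18 in vehicle, with groups that overlap (-0.24, SE 0.34, adjusted p = 0.657). The testis subtypes gave no separation of progestin from vehicle either. H1-6 read 3.76, 4.05 and 4.62 in progestin with doxycycline, 4.61, 4.05 and 3.96 in progestin and 4.28, 3.72 and 4.49 in vehicle (0.038, SE 0.28, adjusted p = 0.94). H1-7 read 6.94, 6.91 and 7.16 in progestin with doxycycline, 7.44, 7.35 and 7.45 in progestin and 7.14, 7.09 and 7.48 in vehicle (0.18, SE 0.12, adjusted p = 0.329). H1-8, the oocyte linker histone, read 7.44, 7.10 and 7.42 in progestin with doxycycline, 7.52, 7.48 and 7.71 in progestin and 7.33, 7.12 and 7.86 in vehicle (0.13, SE 0.19, adjusted p = 0.652). The pseudogene H1-9P read 5.76, 5.12 and 5.77 in progestin with doxycycline, 5.51, 5.83 and 5.58 in progestin and 5.35, 5.52 and 5.76 in vehicle (0.094, SE 0.19, adjusted p = 0.766).

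H2A genes moved one way. Of the 16 members that name H2A genes alone, 13 fell, 3 did not pass and no member rose, in limma's fit and also at an unadjusted p under 0.05. H2AC4 read 6.46, 6.75 and 6.70 in progestin with doxycycline, 6.79, 6.73 and 6.80 in progestin and 9.08, 9.10 and 8.94 in vehicle, which is 4.8-fold lower in progestin than in vehicle (-2.26, SE 0.093, adjusted p = 1.29e-06). H2AC14 read 7.66, 7.69 and 7.64 in progestin with doxycycline, 7.57, 7.68 and 7.69 in progestin and 9.74, 9.51 and 9.52 in vehicle (-1.94, SE 0.083, adjusted p = 1.56e-06). H2AC21, of the small cluster on chromosome 1, read 8.47, 8.60 and 8.62 in progestin with doxycycline, 8.93, 8.82 and 8.74 in progestin and 10.79, 10.80 and 10.55 in vehicle (-1.88, SE 0.094, adjusted p = 3.74e-06). These were the strongest falls of the class, and in each the highest treated array was far below the lowest vehicle array.

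Among probe sets that name 1 H2A gene, the smallest falls that passed were in H2AC20, H2AC6 and H2AC15. H2AC20 read 10.13, 10.19 and 10.07 in progestin with doxycycline, 10.21, 10.14 and 10.25 in progestin and 11.47, 11.46 and 11.19 in vehicle (-1.17, SE 0.091, adjusted p = 3.55e-05). H2AC6 read 10.02, 10.09 and 9.90 in progestin with doxycycline, 10.00, 10.03 and 9.96 in progestin and 10.76, 10.83 and 10.62 in vehicle (-0.74, SE 0.083, adjusted p = 0.000268). H2AC15 read 6.97, 6.71 and 7.08 in progestin with doxycycline, 7.16, 6.92 and 7.10 in progestin and 7.50, 7.47 and 7.53 in vehicle (-0.44, SE 0.11, adjusted p = 0.0166). The call of H2AC15 was lost without vehicle replicate 1 (adjusted p = 0.0521) and without progestin replicate 2 (adjusted p = 0.0568). The 3 members of the class that did not pass were H2AC1, H2AC11 and H2AC25, the first of which encodes a germline H2A.

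The H2A.Z variant, which SRCAP and EP400 complexes place at promoters and enhancers, fell in both of its genes. H2AZ1 read 9.02, 9.37 and 9.28 in progestin with doxycycline, 9.50, 9.37 and 9.33 in progestin and 10.55, 10.47 and 10.27 in vehicle (-1.03, SE 0.11, adjusted p = 0.000274). H2AZ2 read 9.81, 9.85 and 9.69 in progestin with doxycycline, 9.98, 9.93 and 10.01 in progestin and 10.55, 10.70 and 10.61 in vehicle (-0.65, SE 0.074, adjusted p = 0.000313). Neither gene lies in a histone cluster, and in both all vehicle arrays were above all treated arrays.

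H2B genes moved in both directions. Of the 23 members that name H2B genes alone, 13 fell, 3 rose and 7 did not pass. H2BC4 read 8.19, 8.35 and 8.12 in progestin with doxycycline, 8.27, 8.02 and 8.29 in progestin and 10.26, 10.37 and 10.16 in vehicle (-2.07, SE 0.10, adjusted p = 3.84e-06). H2BC7 read 8.31, 8.39 and 8.47 in progestin with doxycycline, 8.70, 8.47 and 8.26 in progestin and 10.28, 10.28 and 10.04 in vehicle (-1.72, SE 0.12, adjusted p = 2.34e-05). H2BC9 read 8.54, 8.61 and 8.36 in progestin with doxycycline, 8.84, 8.69 and 8.99 in progestin and 10.43, 10.54 and 10.25 in vehicle (-1.57, SE 0.12, adjusted p = 2.66e-05). All of these are ordinary cluster genes, with each treated array far below each vehicle array.

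The 3 H2B genes that rose were H2BC5, H2BC21 and H2BC8. H2BC5 read 8.47, 8.47 and 8.40 in progestin with doxycycline, 8.38, 8.12 and 8.45 in progestin and 7.34, 7.68 and 7.49 in vehicle, 1.75-fold higher in progestin than in vehicle (0.81, SE 0.11, adjusted p = 0.00104). H2BC21 read 9.17, 9.12 and 9.22 in progestin with doxycycline, 9.31, 9.28 and 9.31 in progestin and 8.64, 8.70 and 8.38 in vehicle, a 1.65-fold difference (0.73, SE 0.09, adjusted p = 0.000505). H2BC8 read 8.30, 8.46 and 8.11 in progestin with doxycycline, 8.24, 8.01 and 8.30 in progestin and 7.59, 7.79 and 7.67 in vehicle (0.50, SE 0.12, adjusted p = 0.0135). In each gene all 6 treated arrays lay above all 3 vehicle arrays, although the call of H2BC8 was lost without vehicle replicate 1 (0.45, adjusted p = 0.0533), and probe sets that name H2BC5 or H2BC21 together with other genes fell. As background, H2BC5, H2BC21 and H2BC12 are H2B genes known to give polyadenylated transcripts beside the stem-loop form in cells that leave the cycle, and the labels do not say how the RNA was primed for labelling. H2BC12, named here after its values were seen, read 10.58, 10.54 and 10.62 in progestin with doxycycline, 10.29, 10.34 and 10.43 in progestin and 10.48, 10.56 and 10.59 in vehicle and did not pass (-0.19, SE 0.069, adjusted p = 0.0756).

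**Figure D2:**
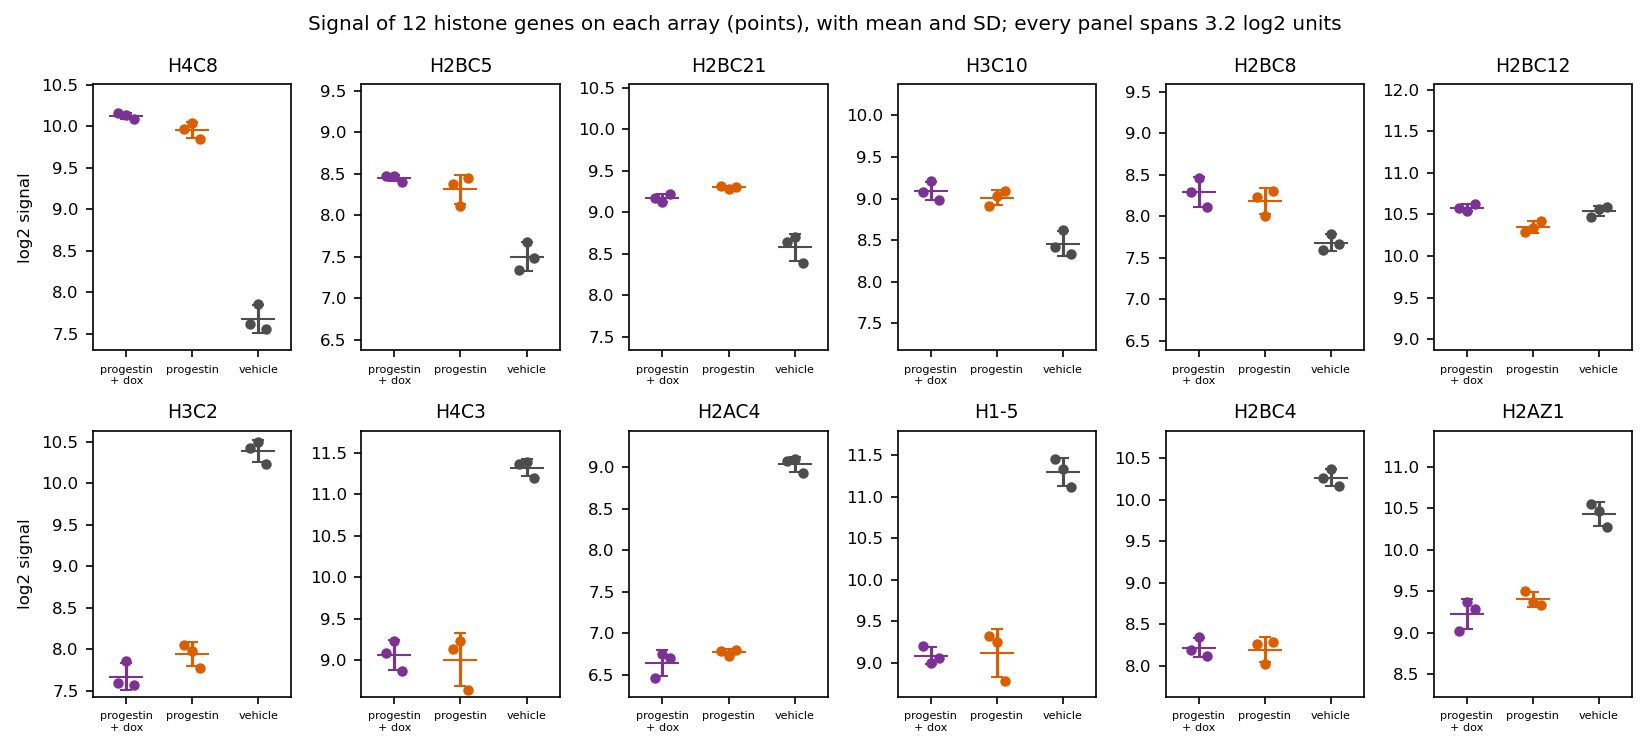
Log2 signal of 12 histone genes on each array, with progestin plus doxycycline on the left, progestin in the middle and vehicle on the right of each panel. Points are arrays, the horizontal line is the mean and the bar the SD over 3 arrays; panels share a span of log2 units but not their level, and levels of different genes are not comparable. In the top row the treated arrays lie above vehicle except in H2BC12, and in the bottom row all treated arrays lie below vehicle.

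H3 genes mostly fell, with a median change of -1.61 over 13 members, of which 10 fell, 2 rose and 1 did not pass. Several of the 13 name the same genes H3C13, H3C14 and H3C15, and 2 of these carried identical values. Over the 8 members that name 1 H3 gene the median was -1.36. H3C2 had the lowest change of all 85 members. It read 7.59, 7.86 and 7.57 in progestin with doxycycline, 8.05, 7.98 and 7.77 in progestin and 10.42, 10.50 and 10.24 in vehicle, a 5.46-fold difference (-2.45, SE 0.12, adjusted p = 3.08e-06). H3C11 read 8.76, 8.88 and 8.85 in progestin with doxycycline, 9.24, 9.20 and 9.01 in progestin and 11.16, 11.15 and 10.93 in vehicle (-1.93, SE 0.095, adjusted p = 3.42e-06). H3C7 read 7.97, 8.15 and 7.88 in progestin with doxycycline, 7.90, 8.14 and 8.22 in progestin and 9.84, 9.79 and 9.60 in vehicle (-1.66, SE 0.12, adjusted p = 2.02e-05). These genes encode the canonical H3 proteins of the chromosome 6 cluster, and their groups were widely separated.

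H3C10 was the single-gene H3 member that rose. It read 9.08, 9.21 and 8.98 in progestin with doxycycline, 8.91, 9.03 and 9.09 in progestin and 8.42, 8.62 and 8.33 in vehicle, with no overlap between treated and vehicle arrays (0.55, SE 0.10, adjusted p = 0.00402). H3C12 read 6.98, 7.38 and 7.24 in progestin with doxycycline, 7.78, 7.28 and 7.52 in progestin and 8.75, 8.74 and 8.77 in vehicle (-1.22, SE 0.14, adjusted p = 0.00035). H3C3 read 6.70, 7.00 and 7.31 in progestin with doxycycline, 7.42, 7.30 and 7.43 in progestin and 7.91, 7.74 and 7.97 in vehicle (-0.49, SE 0.15, adjusted p = 0.0373). The call of H3C3 is the least secure of those named: it was lost without any 1 of the vehicle or progestin arrays and without progestin with doxycycline replicate 2, and also with all probe sets of the table in the fit, at adjusted p values of 0.0509 to 0.105.

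H4 genes held both the single strongest rise and some of the strongest falls. Of the 17 members that name H4 genes, 13 fell, 3 rose and 1 did not pass. Of the 3 that rose, 2 carried identical values and name H4C14 with H4C15. The probe sets that name H4C14 or H4C15 alone fell, also with identical values. H4C3 read 9.09, 9.23 and 8.87 in progestin with doxycycline, 9.14, 9.24 and 8.64 in progestin and 11.37, 11.38 and 11.20 in vehicle (-2.31, SE 0.16, adjusted p = 2.24e-05). H4C4 read 6.11, 6.24 and 6.09 in progestin with doxycycline, 6.34, 5.40 and 5.75 in progestin and 8.08, 7.98 and 7.72 in vehicle (-2.10, SE 0.22, adjusted p = 0.000173). H4C2 read 7.47, 7.43 and 7.36 in progestin with doxycycline, 7.64, 7.80 and 7.85 in progestin and 9.51, 9.39 and 9.21 in vehicle (-1.61, SE 0.097, adjusted p = 9.84e-06). All H4 genes encode the same core histone, and in each of these the treated arrays lay well below the vehicle arrays.

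Among probe sets that name 1 H4 gene, the smallest falls that passed were in H4C13 and H4C9. H4C13 read 9.0, 9.02 and 8.96 in progestin with doxycycline, 9.18, 8.96 and 9.21 in progestin and 10.05, 10.00 and 9.99 in vehicle (-0.90, SE 0.081, adjusted p = 7.97e-05). H4C9 read 6.56, 6.73 and 6.89 in progestin with doxycycline, 6.97, 6.59 and 6.90 in progestin and 7.20, 7.63 and 7.31 in vehicle (-0.56, SE 0.15, adjusted p = 0.0245), a call lost without vehicle replicate 2 and without progestin replicate 2 (adjusted p = 0.0758 for each), and with the replicate number as a block (adjusted p = 0.0553).

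H4C8 stood against the class. It read 10.16, 10.13 and 10.09 in progestin with doxycycline, 9.96, 10.04 and 9.85 in progestin and 7.62, 7.86 and 7.56 in vehicle. The lowest treated array was about 2 log2 units above the highest vehicle array. The change was 2.27 with progestin, which is 4.83-fold higher (SE 0.096, adjusted p = 1.51e-06), and 2.45 for progestin with doxycycline against vehicle (SE 0.096, adjusted p = 8.58e-07). Its upstream DNA is shown beside that of H4C2, an H4 gene of the same cluster that fell. Both stretches are the 160 bases before the annotated start in RefSeq, GRCh38.p14, printed 5′ to 3′ on the minus strand, at chr6:26285535-26285694 for H4C8 and chr6:26027284-26027443 for H4C2. Capitals mark GGTCCG, the core of the H4 promoter element bound by HINFP, and the TATA letters TATAA.
H4C8: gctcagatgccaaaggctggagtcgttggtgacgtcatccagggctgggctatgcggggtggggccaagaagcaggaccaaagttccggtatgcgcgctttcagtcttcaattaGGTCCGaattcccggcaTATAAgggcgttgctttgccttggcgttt
H4C2: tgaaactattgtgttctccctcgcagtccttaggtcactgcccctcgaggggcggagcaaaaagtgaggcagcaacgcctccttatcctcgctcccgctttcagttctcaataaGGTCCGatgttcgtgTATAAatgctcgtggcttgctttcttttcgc
The 2 stretches hold the same pair of marked motifs in the same order, each once. Only a few chosen motifs were searched. The other bases of the 2 stretches differ and were not compared, so likeness in the marked motifs does not make the promoters alike.

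The same motifs were counted in the promoters of all members. RefSeq promoter windows of 300 bases, 250 before the start and 50 after, were found for 57 of the 65 single-gene members, among 35116 windows in the table. Each motif was searched on both strands. Windows of neighbouring genes transcribed away from each other overlap, so a site between their starts was counted for both. ATTTGCAT, the octamer that POU2F1 binds in H2B promoters, was in 10 of 13 H2A windows and 13 of 16 H2B windows and in no window of H1, H3, H4 or H2A.Z genes, against 1.77% of all windows. GGTCCG was in 10 of 11 H4 windows, against 11.3% of all windows. TATAA was in 50 of 57 member windows (20.4% of all windows) and CCAAT in 48 of 57 (34.6% of all windows), with CCAAT in only 3 of the 11 H4 windows. By direction, the octamer was in 16 of the 38 members that fell and 2 of the 5 that rose. TATAA was in 34 of 38 and 5 of 5, CCAAT in 32 of 38 and 4 of 5, and GGTCCG in 11 of 38 and 2 of 5. The octamers counted for H2BC21 and H2BC8, which rose, were also counted for H2AC20 and H2AC8, which fell. GGTCCG of H2BC21 and H2AC20 likewise came from a shared stretch. These motif counts differed by histone class. They are letters in a window and no measure of binding.

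Along chromosome 6, where 49 of the 65 single-gene members lie, the genes that rose were scattered among genes that fell. In the order of these genes, H2BC5 stood between H1-4 and H2BC6, H2BC8 between H4C5 and H2AC8, H4C8 between H2BC10 and H2BC11, and H3C10 between H2AC13 and H2AC14. Each of these neighbours fell in the probe set that names it alone. Probe sets that name several genes have no place in this order, among them that of H3C11 with H3C6, which rose (0.51). H2AC13 rose in the probe set it shares with H3C10 (0.53), and H2BC5 fell in the one it shares with other H2B genes (-1.17). Chromosome 1 held 8 further single-gene members, H2BC21 among them, and 8 lay elsewhere.

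**Figure D3:**
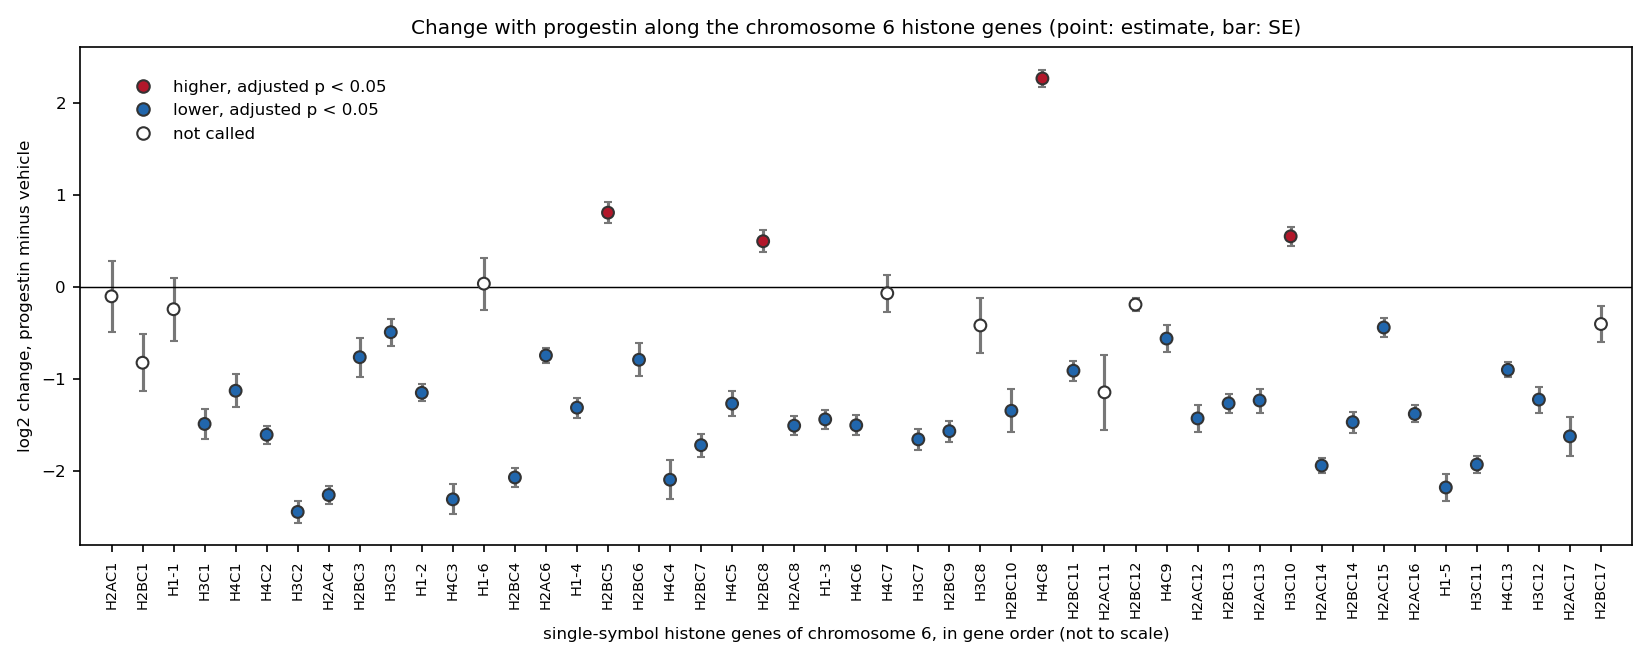
The log2 change for progestin against vehicle is plotted for the single-gene members of chromosome 6 in gene order, evenly spaced and not to scale. Points are estimates, bars are standard errors, and red, blue and open points are higher, lower and not called at an adjusted p of 0.05. The 4 red points, H2BC5, H2BC8, H4C8 and H3C10, each stand among blue neighbours.

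Many H2A and H2B genes sit back to back and are transcribed away from each other across a shared upstream stretch. Among the single-gene members, 9 such pairs had starts within 500 bases, in fact 215 to 248 bases apart. By the probe sets that name 1 gene, both genes fell in 3 pairs (H2AC14 with H2BC14, H2BC13 with H2AC13, and H2BC4 with H2AC6). The calls were opposite in 2 pairs, and at least 1 gene did not pass in the other 4. H2AC13 was also named with H3C10 by a probe set that rose (0.53), so its direction is uncertain. The opposite pairs were H2BC21, which changed by 0.73, with H2AC20 (-1.17), and H2BC8 (0.50) with H2AC8 (-1.51, SE 0.10, adjusted p = 1.69e-05). H2AC8 read 9.33, 9.40 and 9.31 in progestin with doxycycline, 9.57, 9.55 and 9.27 in progestin and 11.00, 11.08 and 10.85 in vehicle. In both pairs the probe set of the H2B gene alone rose and that of the H2A gene fell. For H2BC21 this rests on 1 of its 3 probe sets, since the 2 that name it with other genes fell (-1.21 and -0.98), and the call of H2BC8 was lost without vehicle replicate 1.

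The whole stretch between the starts of each opposite pair is shown because a single piece of DNA lies upstream of 2 genes whose own probe sets moved in opposite directions, with the limit on H2BC21 just given. Both are read on the plus strand from the H2B start to the H2A start in RefSeq, GRCh38.p14, at chr1:149886683-149886917 and chr6:26216689-26216920. Capitals mark the octamer (ATGCAAAT, which is ATTTGCAT on the other strand), the CCAAT box on either strand (CCAAT or ATTGG), the TATA letters on either strand (TATAA or TTATA), and GGTCCG or its complement CGGACC.
H2BC21 to H2AC20: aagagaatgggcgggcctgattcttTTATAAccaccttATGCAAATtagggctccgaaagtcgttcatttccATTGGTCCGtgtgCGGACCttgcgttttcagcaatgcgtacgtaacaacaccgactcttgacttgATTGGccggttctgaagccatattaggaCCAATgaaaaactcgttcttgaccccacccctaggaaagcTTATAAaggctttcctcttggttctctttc
H2BC8 to H2AC8: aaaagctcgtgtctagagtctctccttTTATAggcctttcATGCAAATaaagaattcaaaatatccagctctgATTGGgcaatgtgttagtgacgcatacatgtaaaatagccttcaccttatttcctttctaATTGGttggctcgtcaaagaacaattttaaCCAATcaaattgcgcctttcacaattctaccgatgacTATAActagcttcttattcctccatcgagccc
Each stretch holds 1 octamer, near the H2B end, and 3 CCAAT or ATTGG sites, with TATA letters at both ends. In the stretch of chromosome 1, GGTCCG overlaps an ATTGG, and CGGACC stands once more a few bases on.

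**Figure D4:**
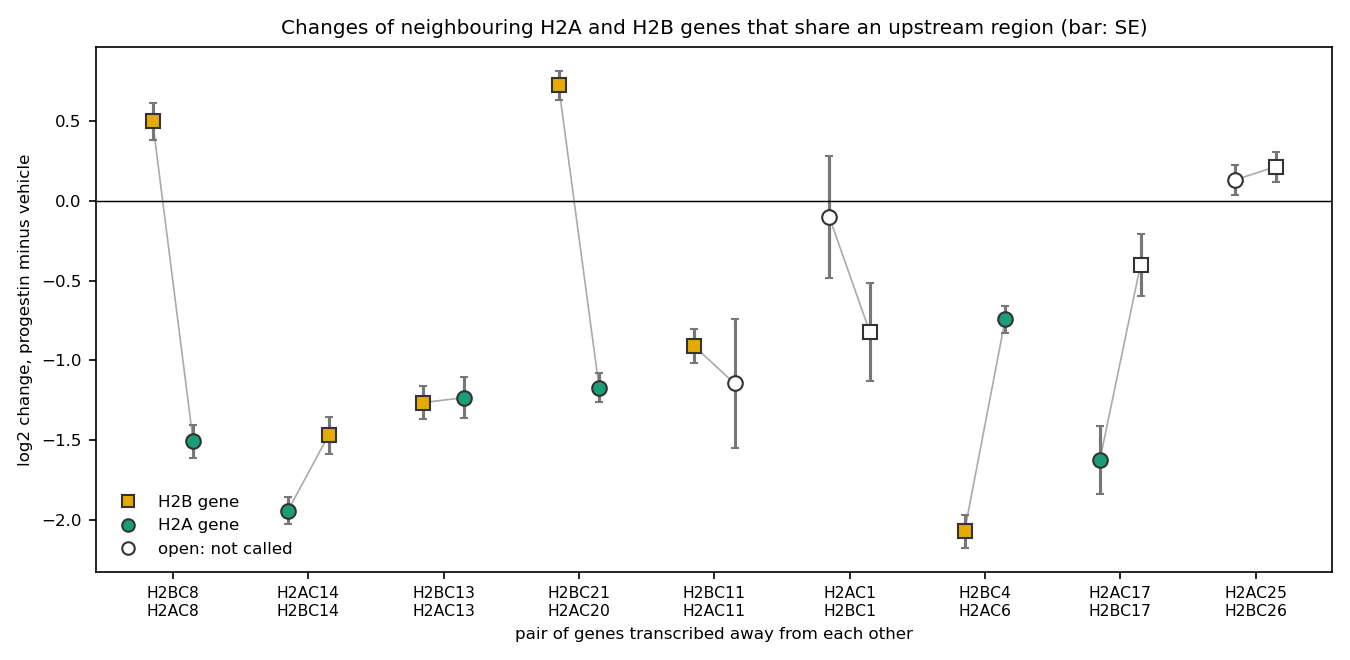
The log2 change for progestin against vehicle is plotted for the 9 back-to-back pairs, with bars of 1 standard error and a line joining the genes of a pair. Squares are H2B genes, circles H2A genes, and open symbols did not pass. The lines of H2BC8 with H2AC8 and H2BC21 with H2AC20 cross 0, with the H2B gene above it.

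Probe sets that name the same gene did not always move together. A total of 6 genes (H2AC13, H2BC5, H2BC21, H3C11, H4C14 and H4C15) were named both by a probe set that fell and by a probe set that rose. For H3C11, the probe set that names it alone fell by 1.93 on the log2 scale. The probe set that names H3C11 with H3C6 read 7.40, 7.68 and 7.68 in progestin with doxycycline, 7.43, 7.10 and 7.25 in progestin and 6.81, 6.87 and 6.56 in vehicle, and rose (0.51, SE 0.13, adjusted p = 0.0184), a call lost without vehicle replicate 3 or without progestin replicate 1 (highest adjusted p 0.0638). The probe set that names H3C10 with H2AC13 rose like that of H3C10 (0.53, SE 0.098, adjusted p = 0.00429), while that of H2AC13 alone fell (-1.23, SE 0.13, adjusted p = 0.000204).

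H2B and H4 genes gave the same kind of disagreement. H2BC21 rose in the probe set that names it alone but fell in both probe sets that name it with related H2B sequences (-1.21 and -0.98). The probe set shared by H2BC12, H2BC12L, H2BC17 and H2BC5 fell (-1.17, SE 0.074, adjusted p = 1.18e-05), and H2BC5 alone rose. H4C14 and H4C15 are near-identical copies; a probe set for each alone fell with identical values (-1.0, SE 0.096, adjusted p = 0.000118), and 2 that name both rose with identical values (0.40, SE 0.084, adjusted p = 0.00821). The direction of these 6 genes is therefore uncertain from the array, and which transcripts each probe set measured was not tested.

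Genes that act on histone messages and proteins, and genes of the cell cycle, were counted in lists for comparison. Of 9 measured histone genes outside the rule, only H2AX passed. H2AX, the variant phosphorylated at DNA breaks, read 9.27, 9.21 and 9.12 in progestin with doxycycline, 9.29, 9.15 and 9.28 in progestin and 10.51, 10.46 and 10.39 in vehicle (-1.21, SE 0.075, adjusted p = 1.12e-05). Of the other 8, none passed. MACROH2A2 was lower (-0.24, adjusted p = 0.0936) without overlap between progestin and vehicle arrays. H2AP (0.70, adjusted p = 0.0857) and H2AJ (0.13, adjusted p = 0.206) were higher without overlap. Of all probe sets, 21.5% were lower and 20.8% higher without overlap. The replication-independent genes H3-3B, which encodes H3.3, and MACROH2A1, a variant of silent chromatin, changed by -0.15 (SE 0.10, adjusted p = 0.298) and 0.10 (SE 0.089, adjusted p = 0.471) and did not pass. CENPA, the centromeric H3, had no probe set that names it alone.

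Of 27 measured genes that act in histone mRNA synthesis, processing and decay, 11 fell and 2 rose, with a median of -0.20, where 15.6% of all probe sets fell and 13.4% rose. SLBP, the stem-loop binding protein, read 8.92, 8.93 and 8.96 in progestin with doxycycline, 8.88, 8.89 and 8.97 in progestin and 9.66, 9.65 and 9.51 in vehicle (-0.69, SE 0.07, adjusted p = 0.000152). ERI1, the exonuclease that trims and degrades the stem-loop end, read 7.05, 7.33 and 7.05 in progestin with doxycycline, 6.97, 6.80 and 6.98 in progestin and 7.71, 7.83 and 7.84 in vehicle (-0.88, SE 0.10, adjusted p = 0.000312). CASP8AP2 (FLASH), a scaffold of the histone locus body, read 6.75, 6.99 and 6.82 in progestin with doxycycline, 6.65, 6.44 and 6.79 in progestin and 7.31, 7.24 and 7.07 in vehicle (-0.58, SE 0.11, adjusted p = 0.00603). All 3 fell and none of their vehicle arrays overlapped the progestin arrays. NPAT, the coactivator of the clusters, read 8.42, 8.70 and 8.53 in progestin with doxycycline, 8.39, 8.36 and 8.40 in progestin and 8.72, 8.78 and 8.50 in vehicle and did not pass (-0.28, SE 0.10, adjusted p = 0.0677). The 2 that rose were CSTF2T (1.60, SE 0.11, adjusted p = 2.15e-05), a cleavage factor subunit, and TUT7 (0.64, SE 0.07, adjusted p = 0.000249), a terminal uridylyltransferase.

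Of 38 measured histone chaperones and deposition factors, 25 fell and 1 rose, with a median of -0.47. Over all probe sets, 15.6% fell and 13.4% rose. MCM2 is counted both in this list and in the S phase list. HJURP, the chaperone of CENP-A, read 7.69, 7.60 and 7.58 in progestin with doxycycline, 7.89, 7.81 and 7.90 in progestin and 9.40, 9.37 and 9.37 in vehicle (-1.52, SE 0.065, adjusted p = 1.68e-06). NASP, which holds soluble H3 and H4, read 7.35, 7.30 and 7.40 in progestin with doxycycline, 7.23, 7.34 and 7.29 in progestin and 8.71, 8.74 and 8.56 in vehicle (-1.39, SE 0.074, adjusted p = 4.82e-06). MCM2, a replicative helicase subunit that also binds H3 and H4, changed by -1.39 (SE 0.079, adjusted p = 7.12e-06), and OIP5, which primes centromeres for CENP-A, by -1.26 (SE 0.088, adjusted p = 2.02e-05). All of these fell.

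The cell-cycle lists fell almost throughout in the same comparison, where 15.6% of all probe sets fell and 13.4% rose. Of 53 measured S phase genes, 49 fell and none rose in limma's fit or at an unadjusted p under 0.05, with a median of -0.97. CCNA2, the S phase cyclin, changed by -1.69 (SE 0.08, adjusted p = 2.72e-06). The licensing and origin firing factor MCM10 changed by -1.67 (SE 0.084, adjusted p = 3.74e-06) and the CDK phosphatase CDC25A by -1.42 (SE 0.079, adjusted p = 6.58e-06). All 24 cell division genes fell, with a median of -1.54, among them the checkpoint kinases BUB1 (-1.81, SE 0.087) and BUB1B (-1.80, SE 0.072), the condensin subunit NCAPG (-1.78, SE 0.065) and the topoisomerase TOP2A (-1.73, SE 0.069). The histone members, at a median of -1.10, lay between the medians of these 2 lists. Their part in the histone result was not tested.

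**Figure D5:**
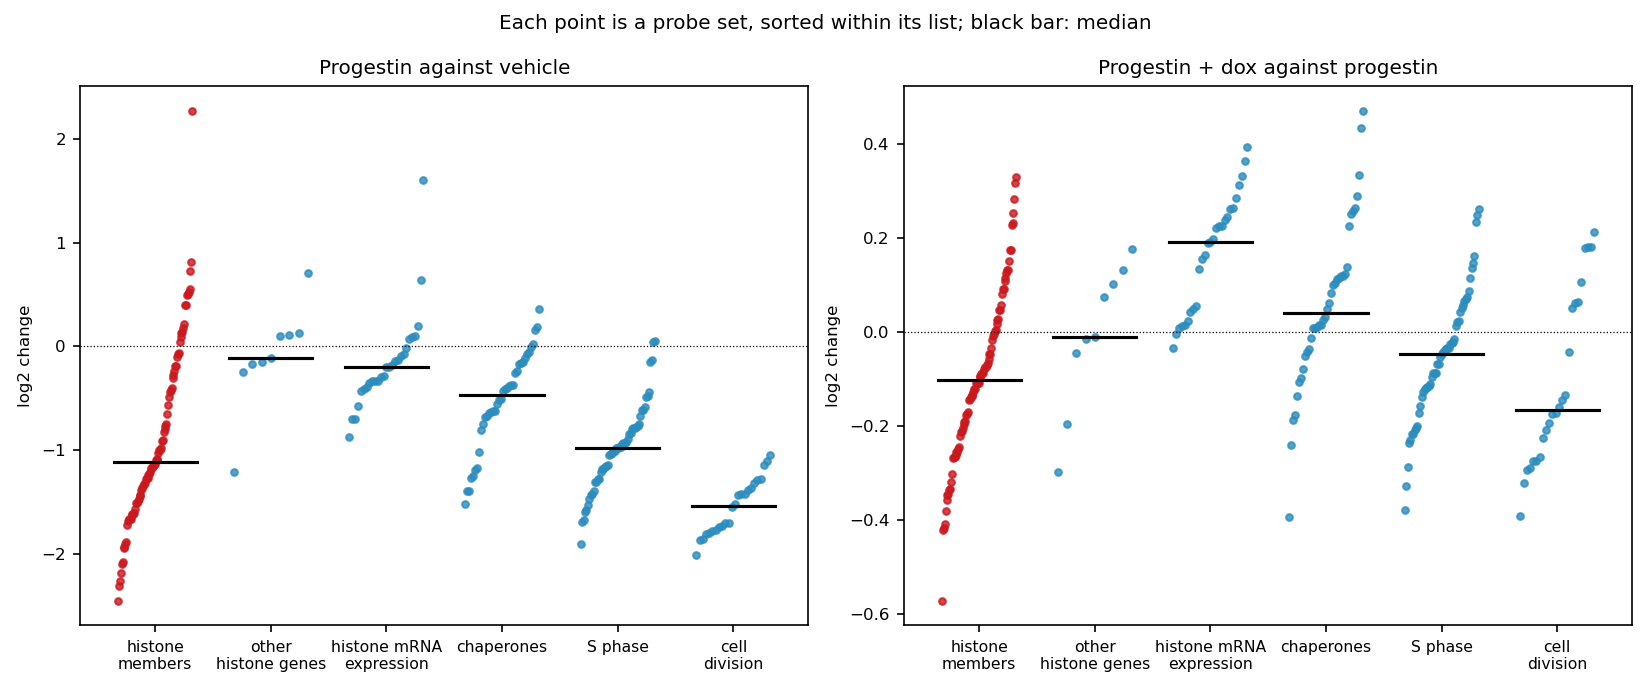
Log2 changes of the histone members and of the genes of the comparison lists, each sorted from low to high, with black bars at the medians. The antisense RNA is not drawn. Progestin against vehicle is on the left and progestin with doxycycline against progestin on the right, on axes of different range. On the left the medians run from -0.11 for the other histone genes to -1.54 for cell division, and on the right they run from -0.16 for cell division to 0.19 for histone mRNA expression.

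Doxycycline added to progestin, which brought ELF5 down, was followed by a median histone change of -0.10 on the log2 scale, against 0.03 over all probe sets. None of the 85 members passed in limma's fit of progestin with doxycycline against progestin, where the smallest adjusted p was 0.160 and 0.0189% of all probe sets passed. At an unadjusted p under 0.05, 18 members were lower and 2 higher, against 3.94% of all probe sets lower and 14.0% in either direction. The sign was negative for 59 of the 85 members, against 43.9% of all probe sets. The arrays did not overlap for 23 members that were lower with doxycycline and 5 that were higher, where 6.43% and 14.8% of all probe sets did so (21.2% in all). With a variance trend and robust estimation, 4 members passed (2.5% of all probe sets), namely H1-3, H2BC14 and H3C11 lower and H2BC12 higher, at adjusted p values of 0.0156 to 0.038.

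The 6 members with the smallest p in that comparison were all lower with doxycycline. H1-3 changed by -0.42 (SE 0.10, adjusted p = 0.16), its 3 doxycycline arrays lying below its 3 progestin arrays. H2BC14 read 8.46, 8.18 and 8.22 in progestin with doxycycline and 8.79, 8.60 and 8.72 in progestin, against 10.34, 10.18 and 10.00 in vehicle (-0.42, SE 0.11, adjusted p = 0.183). H4C2 changed by -0.34 (SE 0.097, adjusted p = 0.193). In each of these, progestin alone had already lowered the level. H2BC13 read 6.79, 6.78 and 6.86 in progestin with doxycycline and 7.26, 7.04 and 7.17 in progestin, against 8.51, 8.53 and 8.22 in vehicle (-0.34, SE 0.10, adjusted p = 0.207). H3C11 changed by -0.32 (SE 0.095, adjusted p = 0.209). The testis gene H1-7 changed by -0.41 (SE 0.12, adjusted p = 0.204) without having passed with progestin. In all 6 the doxycycline arrays lay below the progestin arrays, as 6.43% of all probe sets did. Because the 6 were picked by their p in this comparison, that separation was favoured by the choice and adds no support. In the 5 that fell with progestin the change with doxycycline was smaller in size than that with progestin.

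H4C8 changed by 0.17 with doxycycline (SE 0.096, adjusted p = 0.465) and stayed high. The other genes that rose with progestin moved by between -0.13 (H2BC21) and 0.33 (the probe set of H3C11 with H3C6), none past the threshold. SLBP changed by 0.025 (SE 0.07), and the 27 genes of histone mRNA synthesis, processing and decay had a median of 0.19, with 25 of them positive. No gene passed in any of the 5 lists in limma's fit, where 8 of the 27 were higher at an unadjusted p under 0.05, against 10.1% of all probe sets. Of the 24 cell division genes, 11 were lower and 2 higher at that level, and of the 53 S phase genes 7 were lower and 2 higher, against 3.94% of all probe sets lower.

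Set against vehicle, progestin with doxycycline gave 58 members lower, 9 higher and 18 not passing, where 28.1% of all probe sets passed (12.5% lower, 15.6% higher). This comparison shares the vehicle arrays with the one above. The median change was -1.21 on the log2 scale, against 0.02 over all probe sets, and 50 members were at least 2-fold lower. H3C2 changed by -2.71 (SE 0.12, adjusted p = 1.42e-06), beside -2.45 with progestin alone. H1-5 changed by -2.21 beside -2.18, H2AZ1 by -1.20 beside -1.03, and H2BC5 by 0.94 beside 0.81. ELF5 itself did not pass in it (0.24, SE 0.078, adjusted p = 0.0502).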

How the data were processed

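RNA was measured on Affymetrix human gene arrays in 9 T47D samples, 3 in each of 3 groups taken from the sample titles. The values were deposited by the authors as 1 log2 value per probe set and array. The submitters' processing notes name PLIER, limma, Affymetrix Power Tools and Expression Console, with no role, version or normalization; the log2 scale was inferred from the range of the values. The number of arrays limits the precision: 3 against 3 cannot give an exact permutation p under 0.1.

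Probe sets were named from the platform annotation (1 symbol for 19460, several for 1754, none for 12083), and 19429 of the single symbols were matched to RefSeq genes of GRCh38.p14, which changed 0 names. The 21214 probe sets with a symbol were fitted with limma (version 3.58.1, R 4.3.3) as group means of the 9 arrays together, with eBayes and Benjamini-Hochberg adjustment over all of them, at 0.05; "fell", "rose" and "passed" refer to this fit, changes are the first group minus the second, and SE is the fit's standard error. Its p-values reflect the spread among arrays of a group, from experiments that the design text calls independent.

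The members and lists were chosen with earlier results of these data known. Named by rule were every H1 and H2A.Z member, and the 3 lowest and 3 highest called changes of each other class among single-gene members. So were the 6 members with the smallest p for doxycycline. From the lists came SLBP, NPAT, CASP8AP2, CENPA and the 4 smallest p of each among genes that passed. Array values are left out for CSTF2T, TUT7, OIP5 and the S phase and cell division genes, MCM2 included. For the cell division genes the adjusted p is left out too. Other genes were named after their values were seen. A list gene stands by its brightest single-symbol probe set. Replicate numbers were not used as pairs in the fit. Deviations of same-numbered arrays correlated at -0.26 to 0.48 over 9 pairs, and of different-numbered arrays at -0.51 to 0.28 over 18. These overlapping ranges cannot decide whether same-numbered arrays belong together. Promoter sequences are those of RefSeq.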

Additional observations from a re-analysis of the deposited data

How the results depend on the processing

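Each count was recomputed under 16 alternatives: a replicate block, quantile normalization, omission of the dimmest 25% of probe sets, 16 added to the linear values, a variance trend with robust estimation, only the 2 groups compared, all probe sets of the table, and omission of each of the 9 arrays. For progestin against vehicle the members called numbered 66, with 62 to 66 when an array was left out and 62 to 68 otherwise, including 64 with the replicate block and 62 with identical profiles counted once, which was chosen after seeing the data. For progestin with doxycycline against vehicle they numbered 67, with 65 to 68 and 63 to 68, and 66 with the replicate block. For progestin with doxycycline against progestin they numbered 0 in limma's fit, with the replicate block and with each array left out, and 4 with the variance trend and robust estimation; the cause was not tested. Of the 66 calls, 60 held under every alternative in which the member was tested, and H2AC15, H2BC3, H2BC8, H3C3, H4C9 and the probe set of H3C11 with H3C6 lost theirs under at least 1; of the 67, H2BC17 and H2BC3 did. No called member changed sign. Among H1 genes that were not called, the sign turned when arrays were left out: for progestin against vehicle H1-9P ran between -0.0057 and 0.20, H1-8 between -0.024 and 0.35, H1-1 between -0.61 and 0.088 and H1-6 between -0.18 and 0.20. For progestin with doxycycline against vehicle H1-9P ran between -0.10 and 0.22 (-0.058 with quantile normalization), H1-8 between -0.27 and 0.098, H1-1 between -0.26 and 0.070 and H1-6 between -0.26 and 0.17. Limits: related histone genes may share probes, signal over background is not in the values used, and batch, time in culture of vehicle and group cannot be told apart.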
